A study of Mus musculus with 90 samples.

Results

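The genes Prdm1 and Prdm14 and the chromatin around them in mouse embryonic stem cells are described here. All peaks of 5 ChIP-seq (chromatin immunoprecipitation and sequencing) peak lists that lay within 150 kb of either gene body were taken. The gene bodies were placed at about chromosome 1 from 13103500 to 13117300 for Prdm14 and chromosome 10 from 44157000 to 44178500 for Prdm1 (mouse build mm9). The higher coordinate served as the 5′ end of both genes. For Prdm1 the minus strand is given by RefSeq, while for Prdm14 it was taken from general knowledge and no table used here gives it, so upstream and downstream at Prdm14 rest on that. The rule used positions and no signal, and it found 79 of 141580 peaks, 38 at Prdm14 and 41 at Prdm1.

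Prdm1 (also called Blimp1) and Prdm14 encode zinc finger transcription factors of the PR domain family, and both are needed to specify primordial germ cells, the precursors of eggs and sperm. Prdm14 is also active in embryonic stem cells, where it helps to keep the pluripotent state, while Prdm1 is best known there as a gene that is switched on when cells enter the germ line. Mll2 is the catalytic subunit of a COMPASS-type complex that methylates lysine 4 of histone H3. Its CXXC domain binds unmethylated CpG dinucleotides, and Menin is a subunit of the same complex. Trimethylated lysine 4 (H3K4me3) marks active and poised promoters.

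The series has 90 samples and asked, among other things, how the promoters of these genes contact distal elements where H3K4me3 depends on Mll2. Of these, 5 libraries with peak lists were analysed, and the contact maps, expression data and mutant or knockdown samples were not analysed here. H3K4me3 was measured in V6.5 cells, a mouse embryonic stem cell line, of wild-type genotype that carried a lentiviral hairpin against GFP (shGFP), in replicates 1 and 3, with the home-made antibody #28. Mll2 was measured with the home-made sera #9172 and #9175 and Menin with the Bethyl antibody A300-105A, all in wild-type V6.5 cells for which the labels name no hairpin. H3K4me3 and the proteins were thus measured in different cell preparations. The cell type could not be checked against markers, since no annotation in mm9 was used. There was 1 library per serum and 1 for Menin, and the labels do not say whether the H3K4me3 replicates were separate cultures. Depth ran from 11550409 to 21936546 tags kept after duplicate removal, and the smallest listed peak held between 11 and 16 tags depending on the library. A site missing from a list was therefore not called at that depth, and intervals given below cover counting error only.

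The RefSeq promoter sequences used here held 1 stretch for Prdm1 and 0 for Prdm14. The CpG content of the 2 promoters could therefore not be compared. The reference sequence before the RefSeq start of Prdm1 is shown because the CXXC domain reads CpG. It holds the 250 bases before the start (RefSeq, GRCm38.p6, minus strand, chr10:44458749-44458998, a position not comparable with the mm9 positions of the peaks), printed 5′ to 3′ with each CG in capitals.

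Prdm1 promoter: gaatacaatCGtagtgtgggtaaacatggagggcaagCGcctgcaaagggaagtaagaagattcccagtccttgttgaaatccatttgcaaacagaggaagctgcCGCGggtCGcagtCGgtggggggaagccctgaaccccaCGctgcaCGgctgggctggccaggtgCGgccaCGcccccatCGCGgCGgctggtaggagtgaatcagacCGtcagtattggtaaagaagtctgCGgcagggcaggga

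The stretch holds 15 CG, a motif that reads the same on both strands, with a GC content of 59.2% and an observed to expected CpG ratio of 0.710. Of 32851 RefSeq promoter stretches of the same length, 27.3% held at least as many CG, and the median was 6. Whether this RefSeq start is the same as the 5′ end used for the peaks was not determined.

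Overlapping peaks of the 5 lists (at least 1 bp shared) formed 15 regions at Prdm14 and 17 at Prdm1, out of 52840 in the genome. H3K4me3 replicate 1 had 7 peaks at each locus and replicate 3 had 5 at Prdm14 and 3 at Prdm1. Mll2 serum 9172 had 10 peaks at each, and serum 9175 had 7 at Prdm14 and 8 at Prdm1. Menin had 9 and 13. The plots of peaks along each locus show that the 2 genes were arranged differently. Prdm14 had 10 regions downstream of its gene body and 3 upstream beyond the promoter, and no list had a peak in the outer 133.9 kb of its upstream flank. Prdm1 had 9 regions downstream, 2 inside the gene besides the promoter and 5 upstream, and its peaks ended 80.7 kb upstream.

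**Figure D1:**
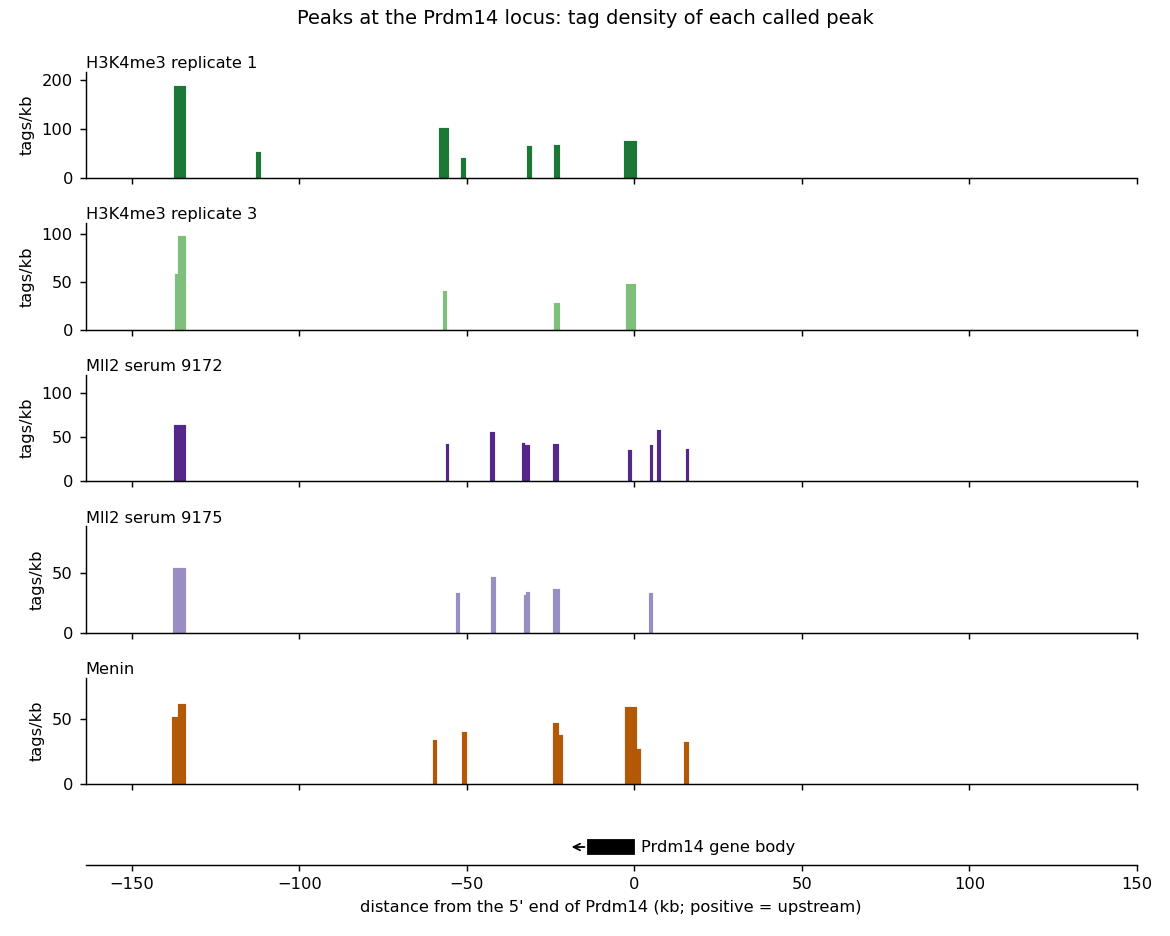
Peaks at the Prdm14 locus in each of the 5 libraries, with distance from the 5′ end of the gene in kb on the x axis (positive is upstream) and the tag density of each peak in tags per kb on the y axis. Each bar is 1 called peak drawn to its width, the black box is the gene body, and the strongest H3K4me3 stands 134 kb downstream, while the promoter carries wide H3K4me3 and Menin peaks.

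**Figure D2:**
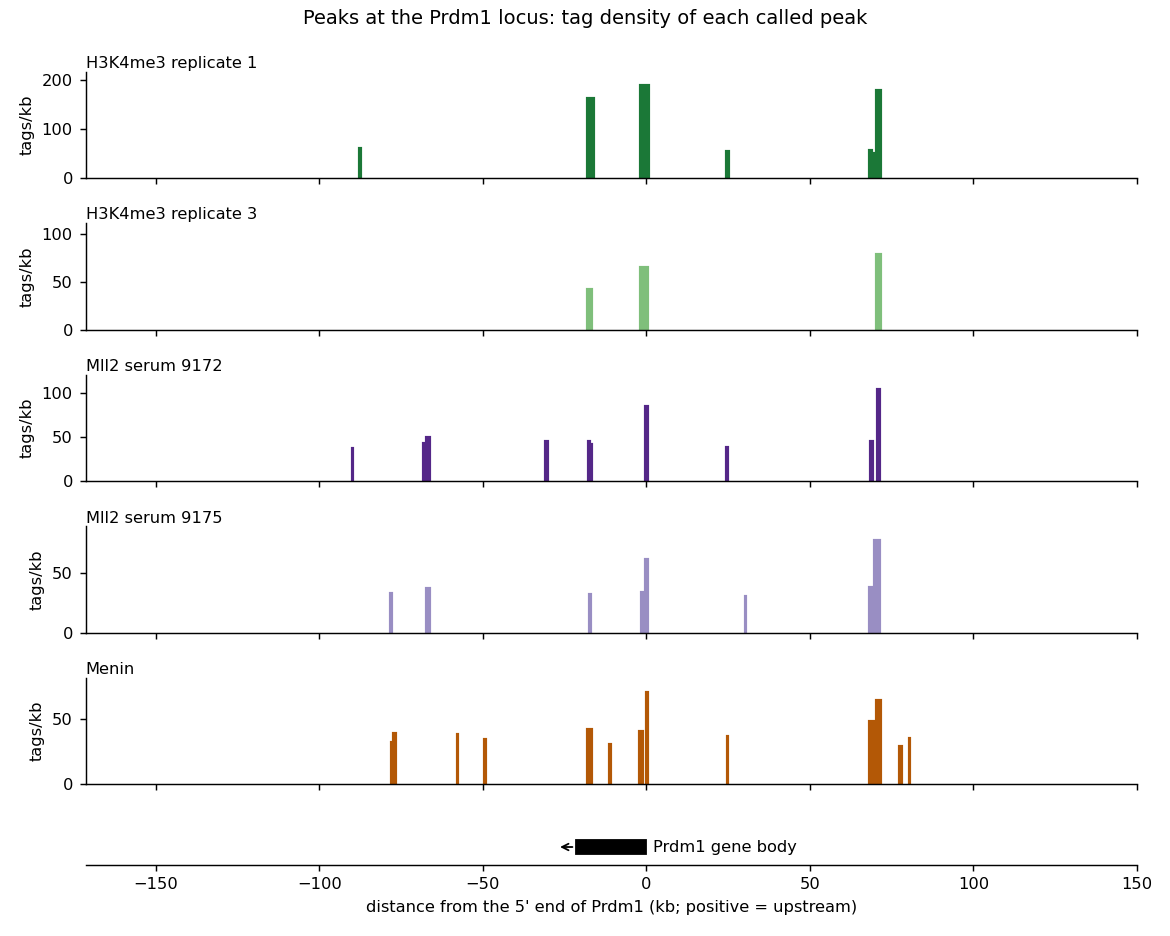
Peaks at the Prdm1 locus in the same layout, with distance from the 5′ end in kb on the x axis and tags per kb on the y axis. In each list the tallest bars stand at the promoter and 68 to 72 kb upstream, and H3K4me3 replicate 1 has a further tall peak inside the gene.

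All 5 lists met at 5 of the 32 regions, 2 at Prdm14 and 3 at Prdm1, where 28.0% of regions in the genome had all 5. H3K4me3 was present in both libraries at 7 of the 32 regions, against 35.5% of all regions, and Mll2 with both sera at 9, against 36.5%. Mll2 with a single serum was seen at 12, against 18.6% of all regions. Menin was present at 18, against 76.8%. Regions with a single list numbered 17, against 48.6% of all regions. Of the regions, 8 held Menin and no other list, against 33.3%, 10 held Mll2 of either serum and nothing else, against 12.1%, and 2 held H3K4me3 alone, against 8.16%. These regions are few and neighbours on 2 chromosomes, so the shares are given as a description.

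At the Prdm14 promoter, H3K4me3 and Menin were broad and Mll2 was called only as 1 small peak. The region ran from 13114647 to 13117786 and reached from 486 bp upstream of the 5′ end to 2.65 kb inside the gene. H3K4me3 had 229 tags over 3088 bp (74.2 tags per kb) in replicate 1 and 114 tags over 2460 bp (46.3 tags per kb) in replicate 3. The replicate 1 peak was longer than 90.8% of its list but denser than only 34.1% of it, so it was wide and low. Menin had 166 tags (58.9 tags per kb), a density above 79.3% of the Menin list, and its summit lay 452 bp inside the gene.

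Mll2 at the Prdm14 promoter amounted to 1 small peak of serum 9172, with 19 tags over 551 bp (34.5 tags per kb), and no peak of serum 9175. The density of that peak ranked 25919 of 25982 in its list, above 0.19% of it, while by fold enrichment, the authors' ratio of a peak to its background, it stood above 15.9% and by tags above 11.1%. Its summit lay 1.32 kb inside the gene. It was the least dense, though not the smallest by tags or fold, of the 10 serum 9172 peaks at the locus. A second Menin peak, of 17 tags (26.5 tags per kb), lay with its near edge 0.994 kb upstream of the 5′ end and overlapped no other list.

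At the Prdm1 promoter all 5 lists had a peak. The region ran from 44176189 to 44179431. H3K4me3 had 555 tags over 2935 bp in replicate 1 (189.1 tags per kb) and 162 tags over 2488 bp in replicate 3 (65.1 tags per kb). Serum 9172 had 74 tags over 865 bp (85.5 tags per kb, above 77.8% of its list), with the summit 109 bp from the 5′ end. Serum 9175 had a main peak of 65 tags (61.0 tags per kb, above 73.2% of its list) with its summit 7 bp from the 5′ end, and a weaker one of 24 tags whose summit lay 0.989 kb inside the gene. Menin was also split, into 53 tags at the 5′ end (71.2 tags per kb, above 89.2% of its list) and 52 tags inside the gene (41.2 tags per kb). By fold enrichment the first of these Menin peaks stood above only 21.9% of the list.

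The 2 promoters differed in H3K4me3 and in serum 9172 by more than counting error, while the direction for Menin depended on the measure. Prdm1 had 2.55 times the H3K4me3 tag density of Prdm14 in replicate 1 (95% interval 2.18 to 2.99, exact Clopper-Pearson on the tag counts) and 1.41 times in replicate 3 (1.10 to 1.8). For serum 9172 the ratio was 2.48 (1.48 to 4.35). For Menin, with the 2 Prdm1 peaks summed (52.4 tags per kb), it was 0.890 (0.690 to 1.14), and with the denser Prdm1 peak alone 1.21 (0.871 to 1.66), both intervals holding 1. By the highest fold enrichment the Menin ratio was 0.593.

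Inside Prdm1, about 16 kb from the 5′ end, a region from 44160203 to 44162386 also held all 5 lists. H3K4me3 had 357 tags in replicate 1 (163.5 tags per kb) and 67 tags in replicate 3 (42.4 tags per kb). Mll2 was weak there, with 2 small peaks of serum 9172 (24 and 18 tags, 45.4 and 42.6 tags per kb) and 1 of serum 9175 (19 tags, 32.4 tags per kb). Menin had 63 tags (42.2 tags per kb). Against the promoter, this region had 0.864 times the H3K4me3 density in replicate 1 (0.755 to 0.989), 0.652 times in replicate 3 (0.483 to 0.871) and 0.516 times the serum 9172 density (0.344 to 0.763). By fold enrichment the direction in replicate 1 turned, at 27.1 inside the gene and 26.0 at the promoter, a ratio of 1.04.

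The upstream region of Prdm1, from 44246515 to 44250197 and thus 68.0 to 71.7 kb before the 5′ end, held the strongest distal Mll2 of both loci by density and by fold enrichment. By tags of the largest single peak the far downstream region of Prdm14 had more, 181 against 96 with serum 9172 and 172 against 150 with serum 9175. With all peaks of a region summed, the Prdm14 region had more with serum 9172 (181 against 143) and fewer with serum 9175 (172 against 196). RefSeq lists 5 predicted transcripts of Prdm1 in a record of 91385 bp, longer than the 21501 bp used here. Whether any of them starts in the Prdm1 upstream region was not determined. Distal thus means only more than 1 kb from the 5′ end used here. The main peaks of the Prdm1 upstream region lay in its outer part and had 283 tags in H3K4me3 replicate 1 (180.1 tags per kb), 109 in replicate 3 (78.9), 96 in serum 9172 (104.9), 150 in serum 9175 (77.2) and 99 in Menin (64.6). The summits of the 2 sera lay 4 bp apart, where, as everywhere in these lists, both sera were called against an input with the same 20878021 kept tags, and the part of a common input in their overlap was not tested. By density the Mll2 peaks stood above 89.0% of the serum 9172 list and 86.3% of the serum 9175 list, and by fold enrichment, at 29.8 and 44.0, above 93.3% and 97.9%. The H3K4me3 peaks stood lower in their lists, above 59.1% in replicate 1 and 41.3% in replicate 3, and the Menin peak above 84.4%. A shoulder nearer the gene was less dense than the main peak in each list that held it. The shoulder had peaks of 67 and 42 tags in H3K4me3 replicate 1, 47 in serum 9172 and 46 in serum 9175, and none in H3K4me3 replicate 3. In Menin its peak had 100 tags against 99 in the main peak, though at 48.7 against 64.6 tags per kb.

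Compared peak with peak, the densities of this upstream site and of the Prdm1 promoter differed by less than counting error in each of the 5 libraries. The density ratio of the main upstream peak to the main promoter peak was 0.953 in H3K4me3 replicate 1 (95% interval 0.823 to 1.10) and 1.21 in replicate 3 (0.942 to 1.55). It was 1.23 in serum 9172 (0.896 to 1.68), 1.26 in serum 9175 (0.939 to 1.72) and 0.907 in Menin (0.643 to 1.29). With all peaks of a region summed, shoulder included, the ratio in H3K4me3 replicate 1 was 0.585 (0.513 to 0.667), while serum 9172 gave 0.863 (0.647 to 1.16) and serum 9175 1.24 (0.959 to 1.61). By fold enrichment of the strongest peak the upstream site exceeded the promoter 1.86 times in serum 9172, 2.82 times in serum 9175 and 2.02 times in Menin. H3K4me3 by fold gave 0.684 in replicate 1 and 1.37 in replicate 3.

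**Figure D3:**
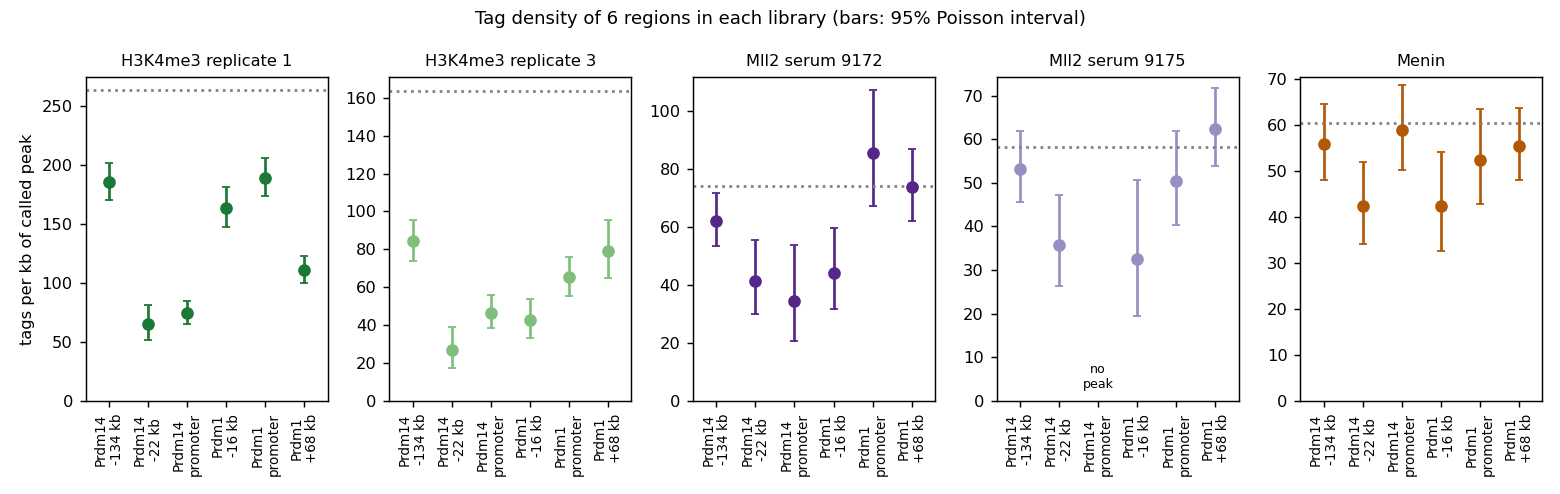
Tag density in tags per kb of called peak (y axis, 1 panel per library) at 6 regions (x axis, named by gene and by the distance of the near edge from the 5′ end, minus for downstream), with all peaks of a region summed. Points are single libraries, bars are 95% Poisson intervals and the dotted line is the median of all regions with all 5 lists, below which all H3K4me3 points lie, while serum 9172 at the Prdm1 promoter (85.5) and serum 9175 at the upstream region (62.3) lie above it.

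The strongest region in the Prdm14 window stood at its far end, from 12979731 to 12983284, 134 kb downstream of the 5′ end. H3K4me3 had 546 tags in replicate 1 (184.9 tags per kb), and 186 tags (97.0 tags per kb) and 53 tags (57.4 tags per kb) in 2 adjoining peaks of replicate 3. Mll2 had 181 tags with serum 9172 (62.1 tags per kb) and 172 tags with serum 9175 (53.2 tags per kb), peaks longer than 99.4% and 99.5% of their lists. Menin had 2 peaks of 96 and 88 tags (60.6 and 51.2 tags per kb). Relative to the Prdm14 promoter, H3K4me3 was 2.49 times as dense in replicate 1 (2.13 to 2.92) and 1.81 times in replicate 3 (1.45 to 2.29), serum 9172 1.8 times (1.12 to 3.06) and Menin 0.947 times (0.764 to 1.18). On that side the next gene in RefSeq order is Slco5a1, and whether the region belongs to the start of that gene was not determined. With windows of 100 kb, which leave this region out, the strongest distal H3K4me3 was 1.34 times the promoter in replicate 1 and 0.861 times in replicate 3.

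Nearer to Prdm14, a region from 13093331 to 13095677, 21.6 kb downstream of the 5′ end and 7.82 kb beyond the gene body, was the other one with all 5 lists. H3K4me3 there was weak, with 79 tags (65.4 tags per kb) in replicate 1 and 26 tags (26.7 tags per kb) in replicate 3, the latter above 0.65% of its list. Mll2 had 44 tags with serum 9172 (41.2 tags per kb) and 49 with serum 9175 (35.7 tags per kb), with summits 11 bp apart. Menin had 57 and 36 tags in 2 peaks (46.0 and 37.5 tags per kb). In replicate 3 its H3K4me3 density was 0.577 times that of the promoter (0.362 to 0.890), and in replicate 1 0.882 times (0.674 to 1.14).

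The other regions with more than 1 kind of target each lacked at least 1 list. From 13059394 to 13061828, 55.5 kb downstream of the Prdm14 5′ end, H3K4me3 had 242 tags in replicate 1 (99.4 tags per kb) and 29 in replicate 3 (39.9), and serum 9172 had 19 (41.0). From 13084723 to 13086452, 30.8 kb downstream, H3K4me3 replicate 1 had 63 tags (63.8 tags per kb), serum 9172 33 (39.5) and serum 9175 18 tags in each of 2 peaks (30.7 and 32.7). These 2 regions had no Menin peak. A region from 13066015 to 13066981 held 26 tags of H3K4me3 replicate 1 (39.9 tags per kb) and 30 of Menin (39.6), and one from 13132407 to 13133357, 15.1 kb upstream, held 17 of serum 9172 (35.7) and 27 of Menin (31.6).

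At Prdm1 a region 24.3 kb upstream, from 44202751 to 44203790, had 57 tags of H3K4me3 replicate 1 (54.8 tags per kb), 20 of serum 9172 (38.7) and 19 of Menin (36.9). Another, from 44100160 to 44101009, 77.5 kb downstream, had 19 tags of serum 9175 (33.5 tags per kb) and 21 of Menin (32.4). In these 6 regions only 1 peak of replicate 3 was listed.

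The remaining 19 regions, 7 at Prdm14 and 12 at Prdm1, held 22 peaks of a single kind of target, and none of H3K4me3 replicate 3. Their 8 peaks of serum 9172 had 15 to 56 tags, with the densest 7.02 kb upstream of Prdm14 from 13124322 to 13124868 (31 tags, 56.7 tags per kb). The 5 of serum 9175 had 14 to 46 tags, with the densest from 13074600 to 13075644, 41.7 kb downstream of the Prdm14 5′ end (39 tags, 45.6 tags per kb), where serum 9172 had 42 tags (54.2 tags per kb). Both sera also met without other lists from 13122013 to 13122725, 4.71 kb upstream of Prdm14 (15 tags with serum 9172 and 23 with serum 9175), and from 44111085 to 44112363, 66.1 kb downstream of the Prdm1 5′ end (56 and 46 tags). The 7 Menin peaks had 16 to 36 tags, with the densest from 44101097 to 44102008 (39.5 tags per kb), and the 2 H3K4me3 replicate 1 peaks had 52 and 47 tags, with the denser one from 44090526 to 44091286 (61.8 tags per kb). None of these peaks stood above more than 54.7% of its own list by density.

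The 2 H3K4me3 libraries differed in level inside Prdm1 and at its promoter, compared as tags per kb per 1000000 kept tags, called scaled density here. The region inside the gene had 7.45 in replicate 1 and 3.46 in replicate 3, a ratio of 0.464 that was lower than at all but 0.12% of the 18733 regions with both libraries. The promoter had 8.62 and 5.30, a ratio of 0.615 that 2.37% of regions fell below, where the median region had 1.02. By fold enrichment these positions were less extreme, with 3.40% and 23.1% of regions below. For the main peak of the upstream region the values were 8.21 and 6.43, a ratio of 0.783 with 14.8% of regions below it. With the shoulder summed in, which replicate 3 did not list, the ratio was 1.27 and 77.3% were below. The Prdm14 promoter had 3.38 and 3.77, a ratio of 1.12 with 62.4% below. The order of the Prdm1 sites by main peak was promoter, upstream and inside the gene in replicate 1, and upstream, promoter and inside the gene in replicate 3, with the first 2 not separated beyond counting error in either. What sets the libraries apart at these sites was not tested.

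The balance of Mll2 to H3K4me3 was also read from scaled densities. At the upstream region of Prdm1 serum 9172 had 0.747 of the density of H3K4me3 replicate 1, a ratio above 84.2% of the 17317 regions with both, and from 80.4% to 84.9% over the 4 pairings of serum and H3K4me3 library. With the main peaks alone these shares ran from 72.8% to 93.5%. At the weak region 21.6 kb downstream of Prdm14 the ratios stood above 82.0% and 83.8% of regions with replicate 1 (serum 9172 and serum 9175) and above 97.4% and 98.5% with replicate 3. The Mll2 density itself was low there, above 16.2% of the serum 9172 list and 34.4% of the serum 9175 list. A high ratio is thus not a high Mll2 density. At the far downstream region of Prdm14 the ratios stood above 50.3% to 71.0%. The Prdm14 promoter stood above 68.3% with serum 9172 and replicate 1 and 70.5% with replicate 3, and above 85.9% and 77.5% by fold enrichment. Its Mll2 density stood above only 0.19% of the serum 9172 list. The Prdm1 promoter stood above 66.8% and 47.4% with replicate 1 (serum 9172 and serum 9175) and above 93.3% and 80.2% with replicate 3. The region inside Prdm1 stood above 35.3% and 29.5% with replicate 1 and above 84.6% and 79.7% with replicate 3. At these 2 sites the place moved with the H3K4me3 library for either serum. With all peaks summed it also moved with the serum at the Prdm1 promoter, where serum 9175 had 2 peaks. With the strongest peaks alone that promoter stood above 66.9% and 57.9% with replicate 1 (serum 9172 and serum 9175). With replicate 3 these shares were 93.0% and 88.7%. From replicate 1 to replicate 3, the place with serum 9172 also rose at Prdm14. It went from 50.3% to 70.1% at the far downstream region and from 82.0% to 97.4% at the weak one. At the region 55.5 kb downstream it went from 62.2% to 84.1%. The change was smaller at the Prdm14 promoter (68.3% to 70.5%). At the upstream region of Prdm1 the direction depended on the peaks taken. With all peaks summed the place there fell from 84.2% to 80.4%, and with the main peaks alone it rose from 78.6% to 93.5%. With the main peaks alone the rise at the far downstream region of Prdm14 was from 49.9% to 62.9%. The scatter of Mll2 against H3K4me3 shows these regions among all others.

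**Figure D4:**
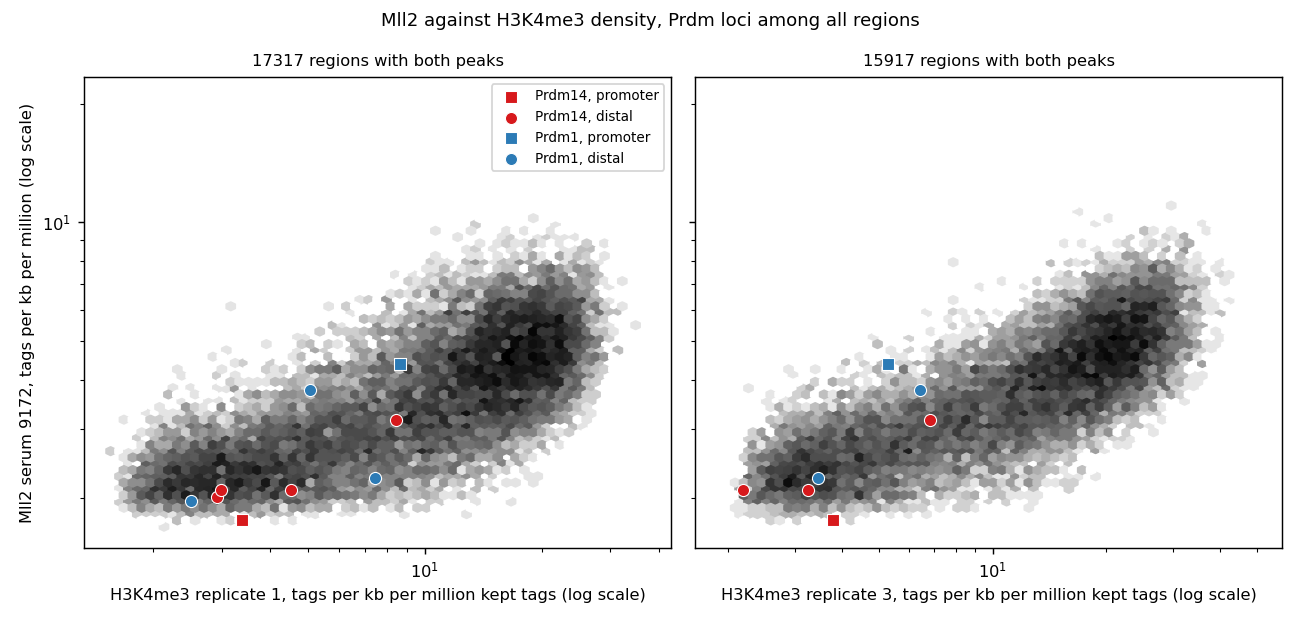
Mll2 density with serum 9172 (y axis) against H3K4me3 density (x axis, replicate 1 left and replicate 3 right), both in tags per kb per 1000000 kept tags on log scales, with grey for all regions that hold both peaks (17317 and 15917) and darker grey for more regions. Squares are the promoters and circles the distal regions of Prdm14 (red) and Prdm1 (blue), and the Prdm14 promoter lies at the lower edge of the Mll2 values.

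Menin relative to H3K4me3 was high at the Prdm14 promoter. The Menin to H3K4me3 ratio there was 1.51 with replicate 1 and 1.35 with replicate 3, above 89.1% and 92.2% of regions with both. At the Prdm1 promoter, with its 2 Menin peaks summed, it was 0.526 and 0.855, above 46.2% and 74.5%. With the denser Menin peak alone it was 0.715 with replicate 1, above 59.5%. The Prdm14 promoter was not the highest at its locus, since the region 21.6 kb downstream stood above 81.1% and 97.0%, and the one from 13066015 to 13066981 above 95.9% with replicate 1.

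The regions elsewhere in the genome most like each promoter were sought by Euclidean distance in log2 scaled density, among regions with peaks of the same lists. For the Prdm1 promoter, over 5 libraries and 14793 regions, the nearest lay on chromosome 7 from 52459150 to 52460637 (distance 0.204), chromosome 11 from 68946516 to 68948899 (0.226) and chromosome 17 from 23729104 to 23730594 (0.305). For the Prdm14 promoter, over 4 libraries and only 364 regions that likewise lacked serum 9175, they lay on chromosome 8 from 129021271 to 129022425 (0.300), chromosome 10 from 80800176 to 80801432 (0.306) and chromosome 5 from 143696968 to 143698548 (0.469). No gene is named for them, since no annotation in mm9 was used.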

How the data were processed

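Peak lists of 5 libraries were used. Per the submitters' processing notes, reads were processed with CASAVA 1.8 and Bowtie 0.12.9 on the build mm9. Per the file headers, MACS 1.4.2 compared each ChIP library with an input (the same 20878021 kept tags for both Mll2 sera) at a p cutoff of 1e-05, and only 1 tag was kept at a position. Tag counts were deposited unscaled. The fold enrichment deposited with it is a ratio to MACS's background, the deposited score is minus 10 times the log10 of the peak's p, and the deposited false discovery rate, in percent, was not used. Keeping 1 tag per position can compress strong narrow peaks.

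Tags per kb are the tag count over peak length. They were compared within a library, with an exact Clopper-Pearson 95% interval on the 2 counts, and between libraries only per 1000000 kept tags. Peaks sharing at least 1 bp were merged, and a promoter region lay within 1 kb of the 5′ end. Shares of a list or of regions are descriptions, and no test across samples was made. Merging and intervals were tested on simulated data (Python 3.11.15, scipy 1.17.1). Members, lists and gene positions were chosen with earlier results of these data known. By rule, regions with at least 2 kinds of target or at a 5′ end are given one by one (13 of 32), the others by ranges. RefSeq tables (GRCm38.p6) served for names, neighbours and 1 sequence. RefSeq's Prdm1 record spans 91385 bp, more than the 21501 bp used here, and whether a predicted transcript starts upstream was not determined. Germ cell genes elsewhere were not looked up for lack of annotation in mm9.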

Additional observations from a re-analysis of the deposited data

How the results depend on the processing

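The strongest single peak, windows of 100 kb, all alternatives for Prdm1 against Prdm14 promoters, and fold enrichment for the comparison of the H3K4me3 libraries were added after the data were seen. There were 224 alternative values over 62 results. Among 57 alternative values of density ratios, 2 crossed 1 where the reported interval excluded 1, and 9 more crossed it where the interval held 1, so those have no settled direction. Strongest distal over promoter H3K4me3 at Prdm14 in replicate 3 went from 1.81 to 0.861 with windows of 100 kb, which leave out the far region. At Prdm1 in replicate 1 it went from 0.864 to 1.04 by fold enrichment, and the cause was not tested.

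Merged regions at Prdm14 (15) were 7 with scores from 100 up and 7 with folds from 10 up. At Prdm1 (17) they were 6 and 7, and 10 with windows of 50 kb. Regions with all lists at Prdm14 (2) were 1 with windows of 50 kb or 100 kb and under either limit, and 4 with windows of 300 kb. At Prdm1 (3) they were 5 with windows of 300 kb and 1 with the fold limit. Leaving out replicate 1 or replicate 3 of H3K4me3 gave 15 merged regions at Prdm14 each time and 16 or 17 at Prdm1, with 2 and 3 regions that held all remaining lists.

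By fold, strongest distal over promoter at Prdm14 was 3.39 in H3K4me3 replicate 1 (2.49 by density), 2.98 in replicate 3 and 1.22 in Menin (0.947). At Prdm1 it was 1.86 in serum 9172 (0.863), 2.82 in serum 9175 (1.24) and 2.02 in Menin (1.06). By tags it was 9.53 in serum 9172 at Prdm14 (1.8), and at Prdm1 0.706 and 0.673 in H3K4me3 replicates 1 and 3 (0.864 and 1.21), 1.93 in serum 9172, 2.20 in serum 9175 and 1.90 in Menin. Windows of 100 kb gave 1.34 in H3K4me3 replicate 1 and 0.718 in Menin at Prdm14. The strongest single peak gave 1.23 in serum 9172 at Prdm1. Prdm1 over Prdm14 promoter was 3.17 by fold in H3K4me3 replicate 1 (2.55 by density), and in Menin (0.890) 1.21 by single peak, 0.593 by fold and 0.633 by tags. Except where a window or limit removes peaks by its construction, the cause was not tested.

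No paired analysis was possible because the 5 lists give no pair of groups with common replicate numbers. The smallest member held 14 tags where a list's smallest peak held 11 to 16, so at these depths a site missing from a list may be only uncalled.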
